A study of Mus musculus with 40 samples.

Results

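The genes described here encode the nuclear subunits of respiratory complexes II, III, IV and V and cytochrome c. They were chosen by name, from symbols that begin with Uqcr, Cox4 to Cox8 or Atp5, together with Sdha, Sdhb, Sdhc, Sdhd, Cyc1 and Cycs, and they had to reach 1 CPM (counts scaled to the size of the library) in 5 or more of 40 libraries. Of 47 genes with such names, 45 passed, among 13543 genes that passed and 22844 that were listed. The 45 comprised 4 genes of complex II, 9 of complex III, 15 of complex IV, 16 of complex V and Cycs. The 2 that did not pass were Cox6b2, at 0 to 25 counts per library, and Cox7b2, at 0 to 1 count. The names admit 2 genes that are not classical subunits, Cox7a2l, a factor that helps join complexes III and IV into supercomplexes, and Atp5s, a coupling factor linked to ATP synthase. Mitochondrially encoded subunits were not analysed here.

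RNA came from the extensor digitorum longus (EDL), a fast hindlimb muscle, of mice labelled with the strain Tsc1tm1Djk/J. CON mice carried the floxed alleles alone (genotype Tsc1fl/fl). Their TSCmKO littermates had lost Tsc1 in skeletal muscle fibers, which leaves mTORC1, the growth kinase that TSC1 restrains, constantly active; the promoter that drove Cre is not given in the sources used here, and all other cells of the muscle kept Tsc1. Mice were 3 or 9 months old and were injected intraperitoneally for 3 days with vehicle or with rapamycin (RM), an mTORC1 inhibitor, at 4 mg/kg according to the labels, although the text of the study names a higher one per day. The 8 groups had 5 libraries each, 3mCON, 3mCON+RM, 3mTSCmKO, 3mTSCmKO+RM and the same 4 at 9 months. The design asks what sustained mTORC1 activity did to muscle RNA at each age and what 3 days of RM changed.

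Libraries held between 8883870 and 35224669 estimated counts. Tsc1 stood at 53.0 to 134 CPM in the 10 CON libraries of 3 months and 51.3 to 122 CPM in those of 9 months, against 18.7 to 30.7 and 17.8 to 35.8 CPM in TSCmKO, so the genotypes did not overlap at either age. The labelled tissue matched its markers, since 6 fast fiber genes (Ckm, Acta1, Tnnt3, Actn3, Pvalb and Myh4) summed to a median of 116446 TPM (a level corrected for transcript length) or more in every group. The labels name no preparation batch, but give insert sizes of 175 to 239 nt for the 3-month libraries and 223 to 308 nt for the 9-month ones, so insert size moved with age, with a small overlap. The labels give none for 9mTSCmKO+RM replicate 5, which was left out of every fit with insert size as a term. In whole muscle RNA, fewer cells of a type and less RNA per cell cannot be told apart either.

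The respiratory chain sits in the inner mitochondrial membrane. Complex II (succinate dehydrogenase) and complex I pass electrons to ubiquinone, complex III hands them on to cytochrome c, and complex IV passes them to oxygen, while complexes III and IV pump protons. Complex V, the ATP synthase, lets the protons flow back and makes ATP. Several subunits exist as a form typical of heart and skeletal muscle and a form used by most cells, among them Cox6a2 and Cox6a1, Cox7a1 and Cox7a2, and Cox8b and Cox8a. NRF1, GABPA, ERR and YY1 are transcription factors known to act on promoters of many such genes.

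The levels placed nearly all 45 genes among the most abundant RNAs of the muscle. On the TPM scale the means over 40 libraries ran from 3801 for Atp5b, the catalytic beta subunit of ATP synthase, at rank 21 of all listed genes, down to 4.53 for Cox4i2, at rank 9358. Below Atp5b came Cox6b1 at 2350, Cox6a2 at 2343, Atp5a1 at 1521 and Cox4i1 at 1290 TPM. Only 4 of the 45 lay below 200 TPM, namely Cox6a1 at 40.7, Atp5s at 40.2, Cox8a at 29.5 and Cox4i2, and 3 of those 4 are the minor isoform of a complex IV subunit. Together the 45 genes took 3.70% ± 0.14 (SD, n = 5) of all TPM in 3mCON and 3.61% ± 0.50 in 9mCON. The share was 3.42% ± 0.57 in 3mTSCmKO and 3.85% ± 0.51 in 9mTSCmKO. With RM it was 3.41% ± 0.23 in 3mCON+RM, 3.19% ± 0.22 in 3mTSCmKO+RM, 3.16% ± 0.28 in 9mCON+RM and 3.14% ± 0.48 in 9mTSCmKO+RM.

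The promoter windows of 3 of these genes are printed because the results below turn on the genes, Cycs for cytochrome c and Atp5g2 and Atp5g3 for the c subunit of ATP synthase. Each runs from 250 bases before to 50 bases after the annotated start in RefSeq on GRCm38.p6, all on the minus strand, at chr6:50566520-50566819 for Cycs, chr15:102670998-102671297 for Atp5g2 and chr2:73911277-73911576 for Atp5g3. Capitals mark the NRF1 motif GCATGCGC in Cycs, from 60 bases before the start, a run of overlapping NRF1 matches on both strands in Atp5g2, from 42 bases before it, and the ERR motif AAGGTCA or its complement in Atp5g3, from 52 bases before it.
Cycs: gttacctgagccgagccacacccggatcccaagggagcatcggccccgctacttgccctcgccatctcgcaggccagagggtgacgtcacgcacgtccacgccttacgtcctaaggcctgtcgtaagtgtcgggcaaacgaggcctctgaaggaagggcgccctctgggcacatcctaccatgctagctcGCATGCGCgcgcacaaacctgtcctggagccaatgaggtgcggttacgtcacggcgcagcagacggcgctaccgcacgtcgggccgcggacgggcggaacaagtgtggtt
Atp5g2: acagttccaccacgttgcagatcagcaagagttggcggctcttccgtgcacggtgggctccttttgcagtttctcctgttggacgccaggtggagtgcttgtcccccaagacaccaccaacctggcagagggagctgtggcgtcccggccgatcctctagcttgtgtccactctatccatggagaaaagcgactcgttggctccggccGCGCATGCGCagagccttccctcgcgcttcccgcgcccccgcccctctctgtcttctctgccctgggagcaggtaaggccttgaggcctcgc
Atp5g3: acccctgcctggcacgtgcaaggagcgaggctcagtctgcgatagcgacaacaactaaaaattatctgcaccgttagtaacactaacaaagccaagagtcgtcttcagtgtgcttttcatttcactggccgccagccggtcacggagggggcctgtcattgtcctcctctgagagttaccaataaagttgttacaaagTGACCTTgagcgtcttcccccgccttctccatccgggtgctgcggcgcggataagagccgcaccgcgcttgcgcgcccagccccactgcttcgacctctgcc
These distances rest on the start RefSeq gives, which lies outside the GENCODE gene for Cycs and inside it for Atp5g2. In all, 36 windows were found for 33 of the 45 genes, and in 30 of the 36 the bases just after the start lie in a GENCODE transcript of the gene. The NRF1 motif, read on both strands, stood in 8 of the 33 (24.2%), against 5.68% of the 10375 tested genes with a window. The ETS motif CCGGAAG bound by GABPA stood in 12 (36.4%, against 18.9%), AAGGTCA in 5 (15.2%, against 3.92%) and the YY1 motif ATGGCGG in 2 (6.06%, against 8.87%). Genes with a match in more than 1 kind included Atp5k, Atp5l, Cox6a1, Sdhb and Uqcr11 for NRF1 and ETS. A match in the letters is a description and not a bound site.

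Few of these genes passed with the genotype, a count that depended on the fit. In 9mTSCmKO against 9mCON, none of the 45 rose past the threshold (an adjusted p under 0.05 by edgeR's quasi-likelihood test, Benjamini-Hochberg over 13543 genes) and 3 fell (6.67%), while 19.1% of all tested genes rose and 18.9% fell. The 3 were Cox4i2, Sdha and Atp5a1. In 3mTSCmKO against 3mCON none rose and 2 fell (4.44%), Sdha and Atp5a1, against 11.4% of all genes that rose and 8.32% that fell. The median log2 difference of the 45 was -0.04 at 9 months and -0.10 at 3 months, and for 41 and 43 genes, respectively, the 95% interval lay within 1 log2 unit of no difference. Within 0.5 log2 units lay the intervals of 16 genes at 9 months and 18 at 3 months, so a difference of that size was not excluded for most. The 9-month count was 6 without 9mCON replicate 2 (4 higher and 2 lower), 5 without 9mTSCmKO replicate 2 (2 higher and 3 lower) and 1 without 9mCON replicate 3 or 4, and both limma fits on TPM called 4 higher and 1 lower at 9 months, where DESeq2 called 2 higher and 3 lower. With only the groups compared the 9-month count was 0, and with the short-transcript index described below as a term it was 12 at 9 months and 5 at 3 months. The 3-month count was 0 without 3mCON replicate 2 or 5 or 3mTSCmKO replicate 2 and 1 without 3mCON replicate 1 or 4 or 3mTSCmKO replicate 3 or 4.

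Sdha, the flavoprotein that holds the catalytic site of complex II (chromosome 13, 74322254 to 74350280, minus strand, GRCm38), stood at 845, 887, 622, 820 and 833 CPM in 3mCON and at 640, 583, 606, 563 and 671 CPM in 3mTSCmKO. All but the lowest control library lay above every knockout library. At 9 months it stood at 453, 635, 735, 818 and 854 CPM in 9mCON and 411, 677, 490, 651 and 522 CPM in 9mTSCmKO, with wide overlap. At 3 months its log2 difference came to -0.39 (edgeR adjusted p = 0.0337, SE 0.13), and at 9 months to -0.34 (adjusted p = 0.0381, SE 0.13). Its partner Sdhb, the iron-sulfur subunit, did not pass at either age, with log2 differences of 0.30 (adjusted p = 0.154) and 0.25. The call on Sdha was lost on leaving out any of 7 libraries at 3 months (3mCON replicates 1, 2, 4 and 5 and 3mTSCmKO replicates 2, 3 and 4; log2 difference -0.38 to -0.35, adjusted p 0.0628 to 0.0856) and any of 6 at 9 months (9mCON replicates 3, 4 and 5 and 9mTSCmKO replicates 1, 3 and 5; -0.33 to -0.24, 0.0679 to 0.178). It was lost as well in both limma fits at either age, with no filter on low counts at 3 months, and with only the groups compared or without the 4 libraries of highest short-transcript index at 9 months.

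Atp5a1, the alpha subunit of ATP synthase (chromosome 18, 77773729 to 77782869, plus strand), stood at 1896, 2249, 1785, 2016 and 2130 CPM in 3mCON and at 1590, 1415, 1553, 1636 and 1675 CPM in 3mTSCmKO. The 3-month groups did not overlap. In 9mCON it stood at 1501, 2679, 1950, 2116 and 2167 CPM and in 9mTSCmKO at 1440, 1853, 1955, 1732 and 1578 CPM, which overlap. The younger mice gave a log2 difference of -0.36 (edgeR adjusted p = 0.0236, SE 0.12) and the older ones -0.28 (adjusted p = 0.0492, SE 0.12). Its catalytic partner Atp5b gave -0.25 (adjusted p = 0.127) and -0.17 (adjusted p = 0.268) and did not pass. Without 3mCON replicate 2 or 5 or 3mTSCmKO replicate 2 the 3-month call was lost (adjusted p 0.0539 to 0.0708), and the 9-month call was lost without 9mCON replicate 2, 3, 4 or 5 or 9mTSCmKO replicate 1, 4 or 5 (log2 difference -0.31 to -0.18, adjusted p 0.0505 to 0.22). The 3-month call was also lost with no filter on low counts, and the 9-month call stood in only 7 of 22 alternatives, being lost with only the groups compared and in both limma fits among others.

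Cox4i2, the isoform of subunit 4 known from lung and from cells short of oxygen (chromosome 2, 152754173 to 152765037, plus strand), gave the largest genotype difference of the 45, from very few reads (13 to 83 counts per library). It stood at 2.89, 4.07, 1.14, 1.91 and 1.70 CPM in 9mCON and at 0.676, 1.12, 1.73, 1.27 and 0.962 CPM in 9mTSCmKO. The groups overlap, with 9mCON replicates 1 and 2 above and the other 3 controls in or close to the range of the knockouts. The log2 difference was -1.02 (SE 0.28, edgeR adjusted p = 0.00365), and it kept its call in 21 of 22 alternatives, with log2 differences of -1.21 to -0.70; only a fit of the 10 libraries alone lost it (adjusted p = 0.0742). At 3 months 3mCON stood at 1.36 to 2.41 CPM and 3mTSCmKO at 1.70 to 2.99 CPM, a log2 difference of 0.29 (adjusted p = 0.494). The difference between the ages in the genotype effect passed as well, at -1.31 (SE 0.39, edgeR adjusted p = 0.0379), the only 1 of the 45 (2.22%, against 3.01% of all genes with a positive and 1.93% with a negative difference). That call was lost without 3mCON replicate 1, 2, 3 or 5, 3mTSCmKO replicate 4 or 5, 9mCON replicate 1 or 2 or 9mTSCmKO replicate 1, and also with the replicate block, with insert size as a term or with only the groups compared, which leaves a count of 0 each time. Cox4i1, the main isoform, did not pass at either age, and Cox4i2 made up only 0.42% ± 0.12 (SD, n = 5) of the TPM of the pair in 9mCON and 0.21% ± 0.06 in 9mTSCmKO.

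**Figure D1:**
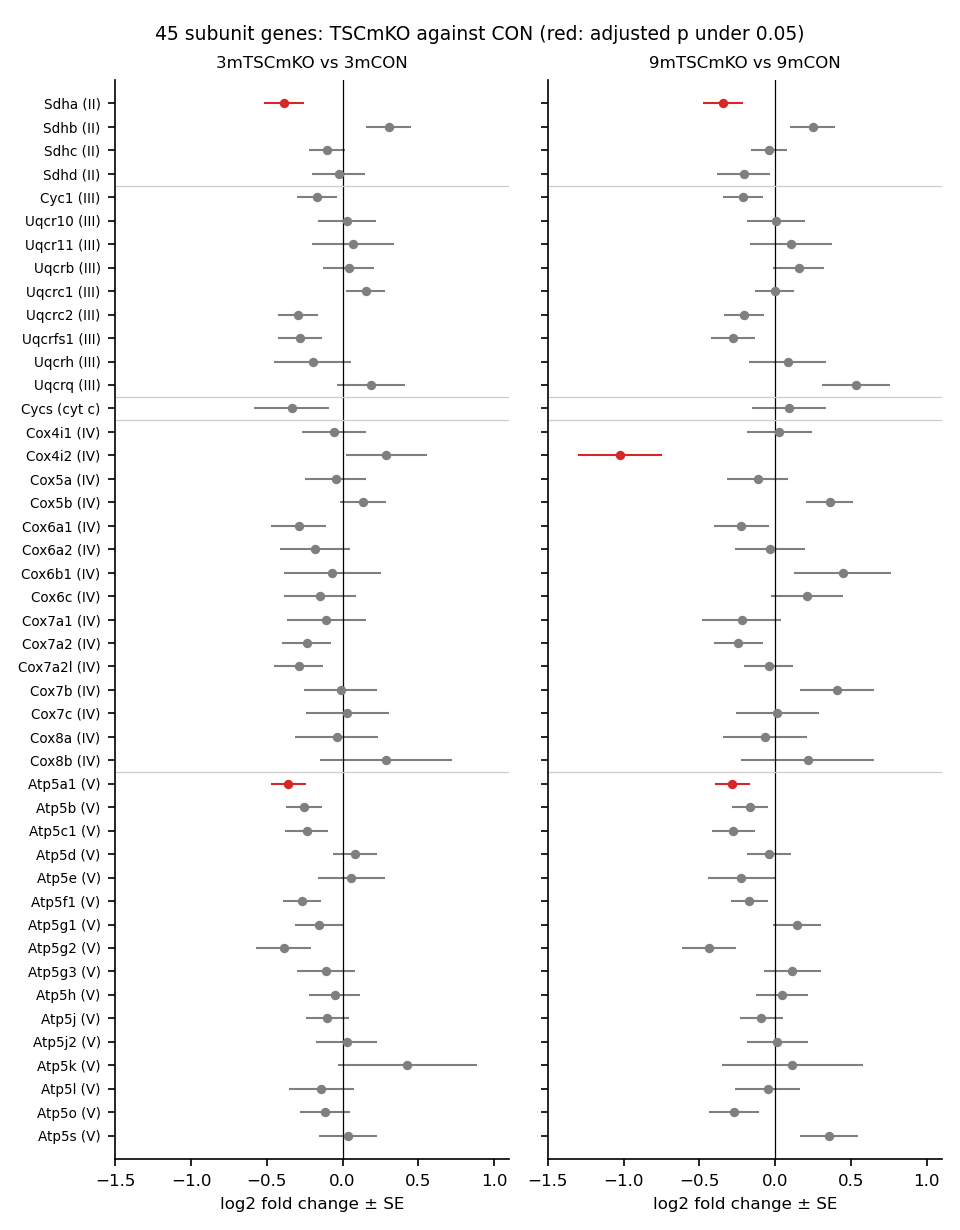
Log2 difference between TSCmKO and CON (x axis, log2 units) for the 45 genes (y axis, grouped by complex), at 3 months on the left and at 9 months on the right. Points are edgeR estimates, bars are 1 SE either side, and red points have an adjusted p under 0.05; most points lie near 0, and the red ones are Sdha and Atp5a1 at both ages and Cox4i2 at 9 months.

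By complex, the 9-month genotype differences were centered near 0, with medians of -0.12 for complex II, 0.01 for complex III, -0.03 for complex IV and -0.07 for complex V. Beside the called genes, 3 of the 45 had an unadjusted p under 0.05 at 9 months. These were Uqcrq, a small subunit of complex III, at 0.54 (SE 0.22, edgeR adjusted p = 0.0571), Cox5b, a nuclear subunit of complex IV, at 0.36 (SE 0.15, adjusted p = 0.0594), and Atp5g2 at -0.44 (SE 0.18, adjusted p = 0.0538).

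Slow or oxidative fiber markers moved with the genotype at 9 months. Of 8 (Myh7, Myh2, Tnnt1, Tnni1, Tnnc1, Myl2, Myl3 and Myoz2), 7 rose in 9mTSCmKO against 9mCON and none fell, and their sum rose from a median of 288 TPM (238 to 580) to 2440 TPM (1724 to 3920). Of 6 fast fiber markers, 4 fell and none rose, and their sum went from 143559 to 159135 TPM in 9mCON to 107051 to 121949 TPM in 9mTSCmKO. Ucp1, the defining gene of brown fat, had a median of 0 in every group. Markers of other cells passed too, in a comparison where 19.1% of all genes rose and 18.9% fell. Of 8 tendon or fibroblast markers 6 were lower (611 to 1447 TPM summed in 9mCON, 262 to 644 TPM in 9mTSCmKO). Of 5 adipocyte markers 2 were lower (34.8 to 57.3 against 7.89 to 25.2 TPM), as were 2 of 4 endothelial markers, whose sums overlapped widely (79.4 to 156 against 75.5 to 137 TPM). At 3 months 1 slow fiber marker rose, with sums of 349 to 1241 TPM (median 523) in 3mCON and 591 to 1911 TPM (median 1219) in 3mTSCmKO, and 1 tendon marker fell. The part of fiber type and of other cells in the subunit values was not tested.

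With RM, 10 members passed in 9mTSCmKO, 3 in 3mTSCmKO, 1 in 9mCON and none in 3mCON, an order that did not hold with only the groups compared (2, 7, 0 and 1). Against 9mTSCmKO, 8 of the 45 fell in 9mTSCmKO+RM (17.8%, against 16.8% of all genes that fell) and 2 rose (4.44%, against 15.8%). The 8 that fell were Atp5g3, Cox7b, Cycs, Uqcrq, Atp5g1, Cox5b, Atp5j and Cox7a2, and the 2 that rose were Atp5g2 and Sdha. The share that fell is near the background, so the count alone sets these genes apart from no others. The sign was shared more widely, since 39 of the 45 log2 differences were negative, with a median of -0.28, against 54.1% negative and a median of -0.04 over all tested genes. With the short-transcript index as a term the median was -0.13 and 34 were negative, and the mean of that index was 0.293 in 9mTSCmKO and 0.0099 in 9mTSCmKO+RM. All 9 genes of complex III, Cycs, 13 of 15 of complex IV, 13 of 16 of complex V and 3 of 4 of complex II were negative.

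Cytochrome c, the carrier between complexes III and IV (Cycs, chromosome 6, 50562563 to 50566538, minus strand), stood at 2206, 829, 2013, 911 and 1082 CPM in 9mTSCmKO and at 1250, 716, 541, 708 and 814 CPM in 9mTSCmKO+RM. The groups overlap, and 2 untreated libraries lay far above the other 3. The log2 difference was -0.81 (SE 0.25, edgeR adjusted p = 0.0113), a fold of 0.57. Without 9mTSCmKO replicate 1 or 3, the 2 high libraries, it was -0.64 to -0.59 and lost its call (adjusted p 0.0504 to 0.0688).

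Cox7b, a small subunit needed for complex IV assembly (chromosome X, 106015700 to 106022450, plus strand), stood at 1275, 476, 983, 615 and 574 CPM in 9mTSCmKO and at 564, 378, 298, 435 and 566 CPM in 9mTSCmKO+RM. Of the untreated libraries, 4 lay above every treated one. The log2 difference was -0.81 (SE 0.24, edgeR adjusted p = 0.0102), lost only without 9mTSCmKO replicate 1 (-0.57, adjusted p = 0.0734). Cox5b fell by 0.44 on the log2 scale (adjusted p = 0.0258), from 536 to 820 CPM to 364 to 677 CPM. Cox7a2, the ubiquitous form of subunit 7a, fell by 0.42 (adjusted p = 0.0455), from 70.1 to 123 CPM to 54.2 to 89.0 CPM. The call on Cox5b was lost without 9mTSCmKO replicate 1 or 3 or 9mTSCmKO+RM replicate 2, 3 or 4 (adjusted p 0.0588 to 0.0958), and that on Cox7a2 without 9mTSCmKO replicate 3 or 5 or 9mTSCmKO+RM replicate 2, 3, 4 or 5 (adjusted p 0.058 to 0.17). In all, Cox5b kept its call in 16 of 22 alternatives and Cox7a2 in 11 of 22. Cox7a2 also lost it with the short-transcript index described below or insert size as a term, and with no filter on low counts.

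The c subunit of ATP synthase forms the rotating ring of the enzyme and is made from Atp5g1, Atp5g2 and Atp5g3, whose mature proteins are the same. Atp5g3 (chromosome 2, 73908447 to 73911326, minus strand) stood at 307, 272, 506, 379 and 368 CPM in 9mTSCmKO and at 284, 216, 134, 196 and 202 CPM in 9mTSCmKO+RM. A single treated library reached into the untreated range. With RM its log2 difference was -0.83 (SE 0.19, edgeR adjusted p = 0.00097), and the call stood in all 22 alternatives run, with log2 differences of -0.97 to -0.57. Atp5g1 (chromosome 11, 96068852 to 96075670, minus strand) fell by 0.49 (SE 0.16, adjusted p = 0.0187), though not when 9mTSCmKO replicate 1 or 3 or 9mTSCmKO+RM replicate 2 or 3 was left out (adjusted p 0.0503 to 0.0778).

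Atp5g2 (chromosome 15, 102662864 to 102672352, minus strand) went the other way. It stood at 70.1, 76.3, 121, 106 and 117 CPM in 9mTSCmKO and at 199, 126, 73.1, 133 and 141 CPM in 9mTSCmKO+RM, where 9mTSCmKO+RM replicate 3 was low for 40 of the 45 genes. Its log2 difference was 0.46 (SE 0.18, edgeR adjusted p = 0.0494), and it was lost without 9mTSCmKO replicate 1, 2 or 4 or 9mTSCmKO+RM replicate 1, 2, 4 or 5 (0.27 to 0.48, adjusted p 0.0618 to 0.245) and stood in 8 of 22 alternatives in all. Sdha, the other gene that rose, stood at 682, 805, 677, 675 and 642 CPM with RM, a log2 difference of 0.34 (adjusted p = 0.0467) from the 411 to 677 CPM of 9mTSCmKO. That call was lost without 9mTSCmKO replicate 1, 3 or 5 or 9mTSCmKO+RM replicate 1, 2, 3 or 4 (adjusted p 0.0566 to 0.181), and it stood in 7 of 22 alternatives in all.

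The count itself hung on single libraries. It was 20 without 9mTSCmKO+RM replicate 1, 4 without 9mTSCmKO replicate 3 or 9mTSCmKO+RM replicate 2, and 5 without 9mTSCmKO+RM replicate 3 or 4, against 10 with all. Fitted on the 10 libraries of both groups alone, it was 2, Atp5g3 and Cox7b.

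In 3mTSCmKO+RM against 3mTSCmKO, 3 of the 45 fell (6.67%, against 13% of all genes) and none rose (against 10.6%). Uqcrb, a small subunit of complex III, stood at 284, 269, 325, 378 and 373 CPM without and 256, 270, 249, 224 and 192 CPM with RM. The ranges touch by 1 library. Its log2 difference was -0.45 (SE 0.17, edgeR adjusted p = 0.0447), a call that any of 7 single libraries could end (adjusted p 0.0523 to 0.127). Sdhb fell by 0.40 (adjusted p = 0.0445), from 404 to 614 CPM to 309 to 459 CPM, and Atp5j, which encodes coupling factor 6 of the stalk of ATP synthase, fell by 0.38 (adjusted p = 0.0487). The count was 0 without 3mTSCmKO replicate 3, 4 or 5 or 3mTSCmKO+RM replicate 3, 4 or 5, and 1 without 3mTSCmKO+RM replicate 2. It was also 0 under upper-quartile scaling, with no filter on low counts and with insert size as a term, and 7 (2 higher and 5 lower) when the 10 libraries were fitted alone. Of the 45 log2 differences 36 were negative, with a median of -0.22, against 48.9% of all genes and a median of 0.01.

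With RM, slow fiber markers summed to 1097 to 1779 TPM in 9mTSCmKO+RM, where 2 of 8 fell and 1 rose. Fast fiber markers summed to 125928 to 145410 TPM there, where 3 of 6 rose and 1 fell. Tendon or fibroblast markers passed in neither direction, and 1 of 4 macrophage markers fell (19.4 to 42.7 TPM summed in 9mTSCmKO, 12.6 to 22.0 TPM in 9mTSCmKO+RM). Of all genes 15.8% rose and 16.8% fell in that comparison. In 9mCON+RM, 7 of 8 tendon or fibroblast markers fell (107 to 468 TPM summed), as did 3 of 4 macrophage markers (2.38 to 13.3 against 12.2 to 41.0 TPM in 9mCON), where 6.82% of all genes fell. The part of these cells in the RM differences was not tested.

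In CON mice 1 gene passed with RM at 9 months and none at 3 months, while both limma fits on TPM called 3 at 9 months. In 9mCON+RM against 9mCON, Cox7a2l (chromosome 17, 83501918 to 83517330, minus strand) rose, 1 of 45 (2.22%, against 5.03% of all genes that rose and 6.82% that fell). It stood at 131, 181, 120, 123 and 95.0 CPM in 9mCON and at 286, 197, 159, 143 and 177 CPM in 9mCON+RM, which overlap through the highest control. The log2 difference was 0.57 (SE 0.16, edgeR adjusted p = 0.0182), and without 9mCON replicate 5 or 9mCON+RM replicate 1 it was 0.47 or 0.40 and lost its call (adjusted p 0.0603 and 0.099), as it did with only the groups compared. In 3mCON+RM against 3mCON no gene of the 45 passed by edgeR or by DESeq2, 2 had an unadjusted p under 0.05, and 0.362% of all genes rose and 0.318% fell. Negative log2 differences made up 40 of 45 at 9 months (median -0.21, against 52% of all genes and a median of -0.02) and 33 of 45 at 3 months (median -0.12, against 50.9% and a median of -0.004).

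**Figure D2:**
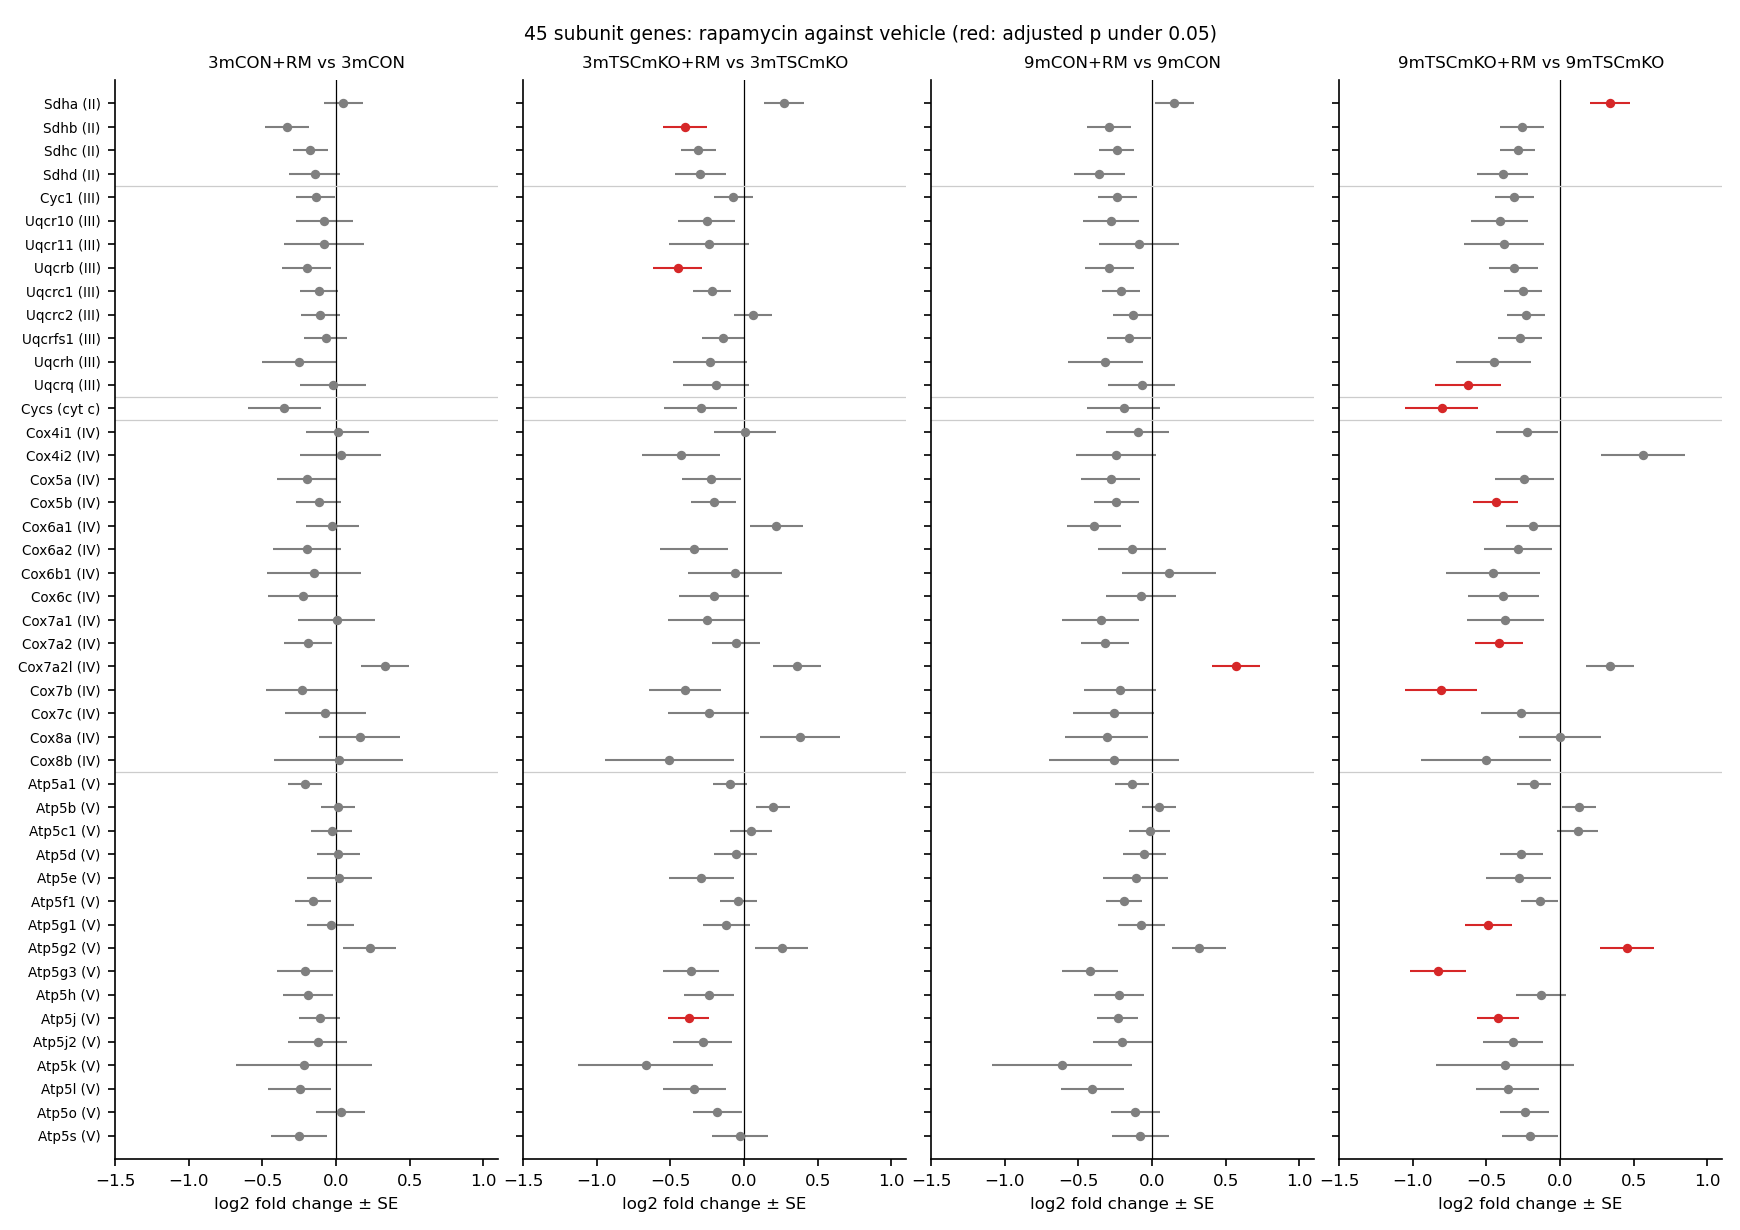
Log2 difference of RM against vehicle (x axis, log2 units) for the 45 genes (y axis, grouped by complex) in, from left to right, 3mCON, 3mTSCmKO, 9mCON and 9mTSCmKO. Points are edgeR estimates, bars are 1 SE either side, and red points have an adjusted p under 0.05; most points lie left of 0 in all 4 panels, and 0, 3, 1 and 10 are red.

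The RM effect was not shown to differ between genotypes for any of these genes. The test of the difference called 0 of 45 at 9 months (against 2.56% of all genes with a positive and 2.31% with a negative difference), where 1 had an unadjusted p under 0.05, and 0 at 3 months (1.36% and 2.09%), where none had. DESeq2 and limma called 0 of 45 at both ages as well. For Cycs the difference at 9 months was -0.61 (95% interval -1.32 to 0.10) and for Atp5g3 -0.41 (-0.96 to 0.14), so effects of these sizes in either genotype alone could not be told apart from equal ones.

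Treated knockouts were also set against untreated controls. In 9mTSCmKO+RM against 9mCON, 11 of the 45 fell (24.4%, against 16.2% of all genes) and none rose (15.7%). The 11 were Sdhc and Sdhd of complex II, Cyc1, Uqcrc2 and Uqcrfs1 of complex III, Cycs, Cox7a2, and Atp5a1, Atp5g3, Atp5j and Atp5o of complex V, with log2 differences from -0.33 for Sdhc to -0.71 for Atp5g3 and Cycs. Cyc1, cytochrome c1, gave -0.52 (SE 0.13, edgeR adjusted p = 0.00212) and Uqcrfs1, the Rieske iron-sulfur protein, -0.55 (SE 0.15, adjusted p = 0.00376). The count was 21 without 9mTSCmKO+RM replicate 1, 17 without 9mCON replicate 5 and 5 when the 10 libraries were fitted alone. Negative log2 differences made up 42 of the 45, with a median of -0.31, against 53.4% of all genes and a median of -0.03. In 3mTSCmKO+RM against 3mCON, 4 fell (8.89%, against 7.71%) and none rose (8.98%), namely Sdhc, Uqcrfs1, Atp5a1 and Atp5j. That count was 2 without 3mCON replicate 4 or 3mTSCmKO+RM replicate 4, and 18 when the 10 libraries were fitted alone, and 40 of the 45 differences were negative (median -0.24, against 52% and -0.02). These comparisons share their samples with those of genotype and RM and are not independent of them. In 9mTSCmKO+RM against 9mCON, 7 of 8 slow fiber markers rose (238 to 580 TPM summed in 9mCON, 1097 to 1779 TPM in 9mTSCmKO+RM). There 7 of 8 tendon or fibroblast markers fell (611 to 1447 against 266 to 539 TPM), as did 2 of 4 macrophage markers and 1 of 6 fast fiber markers. The part of these cells in the differences was not tested.

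**Figure D3:**
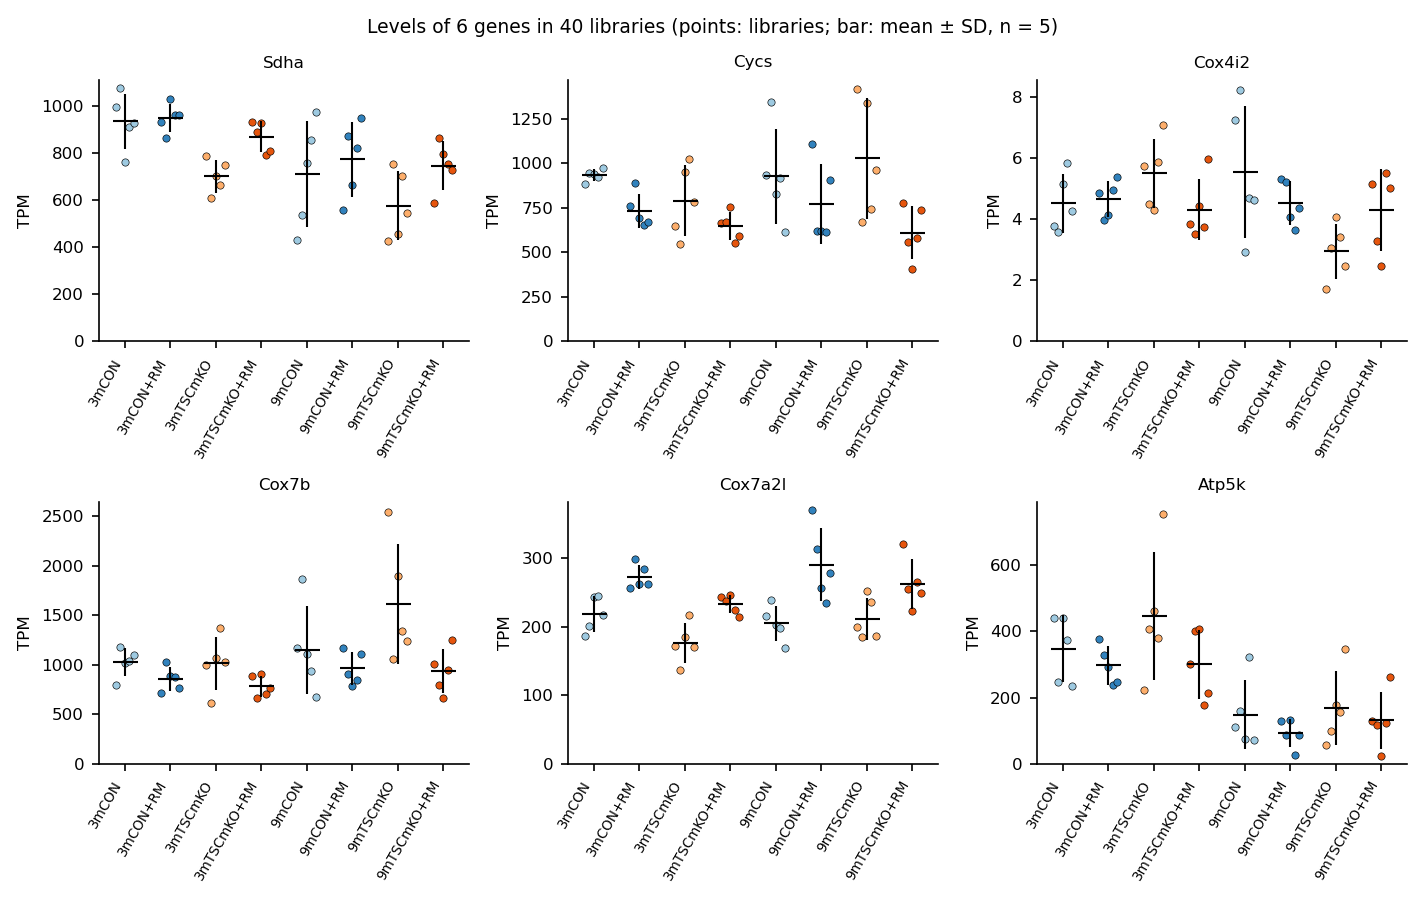
TPM of Sdha, Cycs, Cox4i2, Cox7b, Cox7a2l and Atp5k (y axes, TPM) in each of 40 libraries, by group (x axis), with the mean and SD of each group of 5. For Cycs and Cox7b, 9mCON and 9mTSCmKO spread more widely than 3mCON and 3mTSCmKO.

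Between the ages 1 member passed in CON and 9 in TSCmKO, and insert size moved with age in both. In 9mCON against 3mCON, Cox5b rose, 1 of 45 (2.22%, against 0.679% of all genes that rose and 0.34% that fell). It stood at 289, 307, 307, 358 and 358 CPM in 3mCON and at 600, 661, 505, 444 and 372 CPM in 9mCON. The groups did not overlap. The log2 difference was 0.67 (SE 0.15, edgeR adjusted p = 0.0218), and it lost its call without 3mCON replicate 1, 2 or 3 or 9mCON replicate 1 or 2 (0.57 to 0.67, adjusted p 0.0514 to 0.0997), while the count was 4 without 9mCON replicate 5. With the insert size of each library as a term it was 0.53 (adjusted p = 0.204), and the call was also lost with only the groups compared and in both limma fits.

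In 9mTSCmKO against 3mTSCmKO, 7 of the 45 rose (15.6%, against 19.1%) and 2 fell (4.44%, against 18.3%). With insert size as a term 3 rose (Cox5b, Atp5f1 and Atp5l) and none fell, and with the short-transcript index described below as a term 4 rose and 13 fell. Cox5b again did not overlap, at 318, 273, 359, 470 and 355 CPM in 3mTSCmKO and 801, 536, 820, 584 and 573 CPM in 9mTSCmKO, a log2 difference of 0.90 (SE 0.15, edgeR adjusted p = 2.49e-05) that stood in all 22 alternatives. Cycs (0.89, adjusted p = 0.00494), Cox7b (0.81, adjusted p = 0.00914), Atp5g1 (0.75, adjusted p = 0.000432), Uqcrq (0.72, adjusted p = 0.0111), Atp5f1 (0.44, adjusted p = 0.00482) and Cyc1 (0.36, adjusted p = 0.0291) also rose. The 2 that fell were Cox4i2 (-0.93, adjusted p = 0.00745) and Atp5k (-1.45, SE 0.47, adjusted p = 0.0149). Atp5k, the e subunit that helps ATP synthases pair up, stood at 45.4, 96.5, 102, 79.9 and 185 CPM in 3mTSCmKO and at 16.7, 20.3, 42.3, 31.8 and 74.5 CPM in 9mTSCmKO, which overlap. With insert size as a term its sign turned, to 0.64, and its call was lost without 3mTSCmKO replicate 5 (-1.12, adjusted p = 0.0645). Cox7b lost its call without 9mTSCmKO replicate 1 (0.58, adjusted p = 0.0603), Cyc1 without 3mTSCmKO replicate 1, 2 or 3 or 9mTSCmKO replicate 3 or 4 (adjusted p 0.0529 to 0.089), and the count was 14 without 3mTSCmKO replicate 4. Of 8 tendon or fibroblast markers 6 fell and 1 rose between these groups. All 5 adipocyte markers fell (39.3 to 219 TPM summed in 3mTSCmKO, 7.89 to 25.2 TPM in 9mTSCmKO), as did 3 of 4 endothelial and 3 of 4 erythroid markers. Of 8 slow fiber markers 5 rose and 1 fell, and 3 of 6 fast fiber markers fell. The part of these cells in the age differences was not tested.

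The muscle-type isoforms predominated in every group, and pairs were compared as log2 ratios of TPM (each plus a pseudocount of 1) within a library. Cox6a2 made up 97.5% to 98.7% of the TPM of Cox6a2 and Cox6a1 by group mean, Cox8b 89.0% to 94.0% of Cox8b and Cox8a, and Cox7a1 59.4% to 71.7% of Cox7a1 and Cox7a2. Of 12 ratio tests (3 pairs, genotype and RM in TSCmKO at both ages; two-sided exact permutation tests of 5 against 5, whose smallest possible p is 0.007937), 2 passed after adjustment over the 12. In 3mTSCmKO+RM against 3mTSCmKO the log2 ratio of Cox6a2 to Cox6a1 went from 5.81 ± 0.12 to 5.24 ± 0.18 (SD, n = 5; difference -0.57, exact permutation p = 0.007937, adjusted p = 0.0476), and that of Cox8b to Cox8a from 3.92 ± 0.20 to 3.00 ± 0.19 (difference -0.92, exact permutation p = 0.007937, adjusted p = 0.0476). The groups did not overlap in either ratio. None of the other 10 passed, with adjusted p from 0.19 for Cox8b to Cox8a in 3mTSCmKO against 3mCON to 0.889, and the 9-month RM differences were -0.18 and -0.54 for the same pairs (adjusted p = 0.629 and 0.612), with ranges of -0.35 to -0.07 and -0.83 to -0.32 without 1 library each. Some markers of other cells passed in 3mTSCmKO+RM too, 1 or 2 in a list, where 10.6% of all genes rose and 13% fell. Against 3mTSCmKO, 2 of 8 tendon or fibroblast markers rose (624 to 1234 TPM summed without RM, 998 to 1712 TPM with it), as did 1 of 4 macrophage markers (15.7 to 31.1 against 24.8 to 63.1 TPM) and 1 of 3 satellite cell markers (9.27 to 12.1 against 18.7 to 30.5 TPM). Of 8 slow fiber markers 1 rose and 1 fell, and of 6 fast fiber markers 2 rose and 1 fell. Their part in the ratios was not tested.

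The ratio of Atp5g2 to Atp5g3, whose promoters are printed above, was examined after the opposite changes of these genes had been seen in these libraries, so it is described with no test. With RM, Atp5g2 took a larger share of the TPM of the 3 c-subunit genes in all 4 settings, from 17.7% ± 2.2 (SD, n = 5) to 31.8% ± 2.1 in 9mTSCmKO, from 24.0% ± 1.1 to 32.5% ± 2.7 in 9mCON, from 23.6% ± 3.4 to 30.7% ± 2.3 in 3mTSCmKO and from 27.0% ± 1.7 to 32.6% ± 2.9 in 3mCON. The log2 ratio was higher with RM by 1.26, 0.70, 0.60 and 0.45, and the groups did not overlap except in 3mTSCmKO. In 9mTSCmKO against 9mCON the ratio differed by -0.58, with no overlap, and in 3mTSCmKO against 3mCON it was -0.98 ± 0.17 in 3mCON and -1.22 ± 0.29 in 3mTSCmKO. Tested singly among all 13543 genes, Atp5g2 and Atp5g3 passed in only 1 of these 6 comparisons, RM in 9mTSCmKO.

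**Figure D4:**
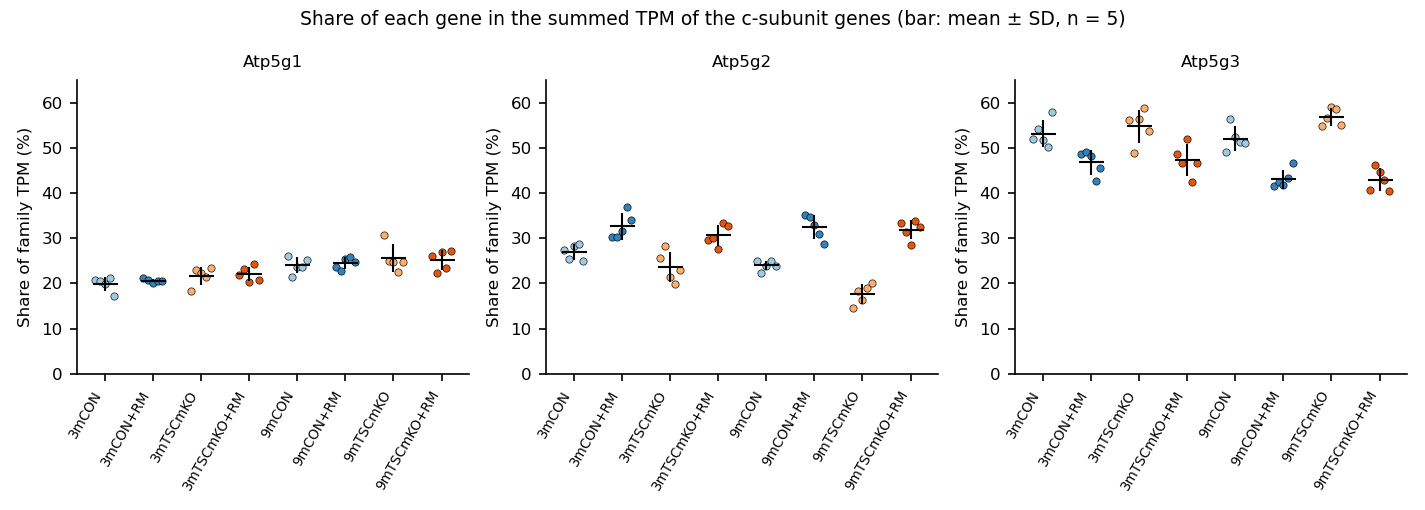
Share of the summed TPM of Atp5g1, Atp5g2 and Atp5g3 (y axis, percent) taken by each gene in each of 40 libraries, by group (x axis), with the mean and SD of each group of 5. The share of Atp5g2 is lowest in 9mTSCmKO, at 14.5% to 20.2%, and its mean is higher in each RM group than in its vehicle group.

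Proteins that build these complexes without staying in them were followed through a list of 39 assembly factors, of which 37 were tested. In 9mTSCmKO against 9mCON 4 rose and 4 fell, against 19.1% and 18.9% of all genes. Cox19, which serves copper delivery to complex IV, rose by 1.44 on the log2 scale (SE 0.25, edgeR adjusted p = 1.32e-05), and Lyrm7, which holds the Rieske protein Uqcrfs1 before it is inserted, fell by 0.70 (SE 0.12, adjusted p = 1.93e-05). At 3 months, against 11.4% and 8.32% of all genes, 2 rose and 2 fell, Cox19 by 0.95 (adjusted p = 0.00388) and Coa5 up, and Lyrm7 by -0.55 (adjusted p = 0.000889) and Cox15, an enzyme of heme A synthesis, down. Among the subunits these factors serve, Cox4i2 was the only one of complex IV to pass in either comparison, and Uqcrfs1 passed in neither.

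With RM, 11 of the 37 assembly factors fell and 1 rose in 9mTSCmKO, where 16.8% of all genes fell and 15.8% rose. Cox19 fell by 1.01 (SE 0.24, edgeR adjusted p = 0.00148), Higd1a, a factor of complexes III and IV, by 1.0 (adjusted p = 0.0108) and Pet100, needed for complex IV assembly, by 0.85 (adjusted p = 0.000595), while Coa4 rose by 0.73 (adjusted p = 0.0116). In 3mTSCmKO 5 fell and 2 rose (13% and 10.6% of all genes), in 9mCON 1 fell (Lyrm7) and in 3mCON none passed, with 37 tested each time. Of 7 further subunits or partners 4 were tested. In 9mTSCmKO against 9mCON 1 of the 4 rose (19.1% of all genes), and with RM in 9mTSCmKO 2 fell (16.8% of all genes). Atpif1, the inhibitor that stops ATP synthase from running backwards, rose by 1.0 (SE 0.21, adjusted p = 0.000274) in 9mTSCmKO against 9mCON and fell by 0.53 (adjusted p = 0.0496) with RM in 9mTSCmKO, while the subunits of the F1 head it binds, Atp5a1 and Atp5b, were at -0.28 and -0.17 with the genotype.

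Within groups the 45 genes rose and fell together from library to library. In 9mCON replicate 2, 40 of the 45 stood at the highest level of their group, in 9mTSCmKO+RM replicate 1 it was 41, in 9mCON+RM replicate 1 it was 36 and in 9mTSCmKO replicate 3 it was 32, while 9mTSCmKO+RM replicate 3 was the lowest for 40. At 3 months 3mCON+RM replicate 2 was the highest for 39, and 3mTSCmKO replicate 4 and 3mTSCmKO+RM replicate 1 for 31 each. The first principal axis of the deviations from group means held 66.3% of their variance and the next 14.2%, and 44 of the 45 had weights of the same sign, with Sdha the exception. The weight went with transcript length (Spearman's rho -0.78 across the 45 genes, which are not independent replicates and come from the same libraries). Cox8b, of 360 nt, had the largest weight. Atp5a1, of 2104 nt, had a weight near 0, and Cycs, of 2086 nt, stood higher than other long members. The 45 transcripts are short, with a median of 735 nt against 2390 nt for all tested genes, and 25 of them are under 800 nt.

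Other short transcripts were followed through an index in each library. This index, the mean log2 level of 305 other genes under 800 nt (67 ribosomal protein genes and 21 complex I genes among them) less that of 2817 genes over 3000 nt, was highest in the 4 libraries of 9 months just named as high, at 0.636 to 0.914. In 3mCON+RM replicate 2 and 3mTSCmKO replicate 4 it was 0.086 and 0.085, the highest of their groups, and in 3mTSCmKO+RM replicate 1 it was -0.157, below the -0.058 of replicate 2 of that group. Its SD within groups was 0.10 to 0.19 at 3 months and 0.37 to 0.52 at 9 months. Its group means ran from -0.205 in 3mTSCmKO+RM to -0.098 in 3mCON among the 3-month groups. At 9 months the mean was 0.171 for 9mCON, 0.293 for 9mTSCmKO, 0.095 for 9mCON+RM and 0.0099 for 9mTSCmKO+RM. The part of this index in the results was not tested as a cause. It was entered as a term in the fit, a choice made after seeing the data, and the median SE of the 9-month genotype differences then went from 0.18 to 0.12.

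**Figure D5:**
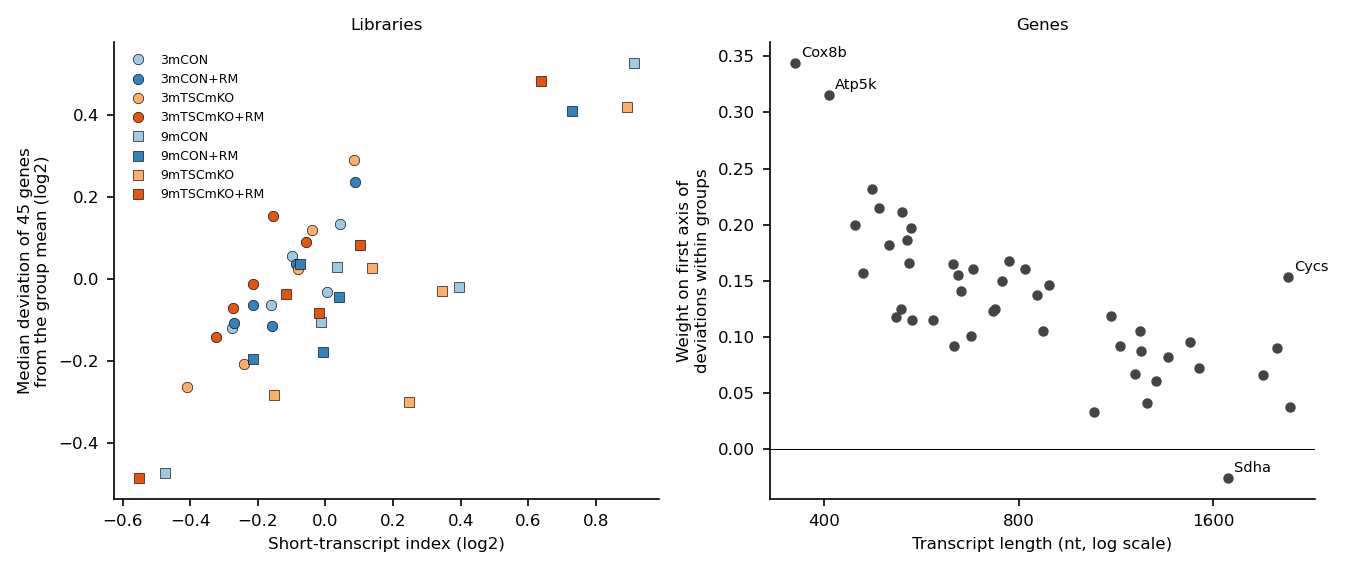
Left, the short-transcript index of each library (x axis, log2 units) against the median deviation of the 45 genes from their group mean (y axis, log2 units), 40 libraries. Right, transcript length (x axis, nt, log scale) against the weight of each of the 45 genes on the first axis of the deviations (y axis); the shortest transcripts carry the largest weights and Sdha a negative one.

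With the index as a term more members passed in most comparisons. In 9mTSCmKO against 9mCON 2 rose and 10 fell, of 42.6% of all genes called in either direction, and in 3mTSCmKO against 3mCON 1 rose and 4 fell (25.4%). Sdha, Atp5a1 and Atp5g2 fell at both ages in that fit, Atp5g2 by 0.52 (adjusted p = 8.8e-05) at 9 months and 0.36 (adjusted p = 0.0077) at 3 months, and Cox5b (0.30) and Uqcrq (0.43) rose at 9 months. With RM in 9mTSCmKO 3 rose and 7 fell (35.5%), in 3mTSCmKO 3 rose and 6 fell (29.5%), in 9mCON 2 rose and 3 fell (16.2%) and in 3mCON 1 rose and none fell (1.77%). Cox7a2l rose in all 4 of these, by 0.53 in 9mTSCmKO, 0.41 in 3mTSCmKO, 0.62 in 9mCON and 0.36 in 3mCON, against 0.34, 0.36, 0.57 and 0.33 without the term, of which only the 9mCON value passed. Between ages 1 rose and 3 fell in CON (1.25%), and 4 rose and 13 fell in TSCmKO (32.2%). Against untreated controls 1 rose and 14 fell in 9mTSCmKO+RM (37.4%) and none rose and 10 fell in 3mTSCmKO+RM (22.8%).

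Leaving out the 4 libraries with the highest index gave a different set at 9 months. In 9mTSCmKO against 9mCON, 4 then rose, Cox7b (0.65), Uqcrq (0.55), Atp5s (0.54) and Cox5b (0.39), and 1 fell, Cox4i2 (-0.93), where 20.1% of all genes rose and 17.5% fell. In 9mTSCmKO+RM against 9mTSCmKO 12 fell and none rose, against 16.8% and 15.3% of all genes, 8 of them among the 10 genes called with all libraries.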

How the data were processed

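RNA of 40 EDL muscles was sequenced from directional poly(A) libraries as single 50-base reads. Per the labels and the study's methods, the authors trimmed reads with Cutadapt 1.9.1, aligned them with kallisto 0.43.1 to GRCm38 transcripts from Ensembl, shared reads that fit several transcripts among them, and deposited estimated counts and TPM per gene.

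Estimated counts were rounded. Genes at 1 CPM or more in 5 or more libraries were fitted with edgeR 4.0.16 (R 4.3.3; TMM scaling, robust quasi-likelihood) in 1 model of 8 groups, with 10 pairwise comparisons and 3 differences of differences, and Benjamini-Hochberg adjusted. Values given in CPM are TMM-scaled. On simulated data for 9mTSCmKO against 9mCON, the procedure called 1 of 50 genes changed 1.25-fold and 13 of 50 changed 1.5-fold. At 2-fold it called 37 of 50 and at 4-fold 49 of 50. Of its calls there, 6.54% were on unchanged genes, so small changes were mostly missed. DESeq2 1.42.0 and limma 3.58.1 on log2(TPM + 1) were among the alternatives. P-values measure the spread between these libraries, which may be partly technical. The model takes 1 spread per gene from all 8 groups, so a spread that differs between ages is averaged in its p-values, SEs and intervals. For the short-transcript index the SD within groups was 0.10 to 0.19 at 3 months and 0.37 to 0.52 at 9 months. Ratios used TPM plus 1. Gene coordinates came from GENCODE on GRCm38. Transcript lengths came from counts over TPM and matched the annotated length within 1% for 96.2% of 496 genes with a single transcript. At most 5.80% of the 31-base words of any member occur in other genes.

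Named genes were Sdha and the other fixed subunits, the isoform families, the 2 largest rises and falls among called members per comparison, and calls in opposite directions. Other genes were named after their values were seen. Members and lists were chosen with earlier results of these data known.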

Additional observations from a re-analysis of the deposited data

Results flagged for a closer look

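In 14 of the 200 groups of 5 libraries examined for the named genes, 1 library lay apart from the other 4 by Dixon's ratio, which chance gives in about 1 in 20 groups. All values are TMM-scaled CPM. In 3mCON+RM replicate 2, Atp5b stood at 3003 (others 2569 to 2676), Cox4i1 at 546 (406 to 427) and Cox5a at 439 (298 to 327). In 3mCON, Atp5g1 was high in replicate 4 at 381 (262 to 290), while in replicate 3 Cox8b was high at 112 (57.7 to 73.4) and Sdha low at 622 (820 to 887).

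At 9 months Cox4i1 stood apart at 886.5 in 9mCON replicate 2 (others 320.3 to 438) and at 767 in 9mTSCmKO replicate 3 (363 to 472), where Cox6a1 was high as well, at 19.4 (9.99 to 12.5). Cox6a2 was high in 9mCON+RM replicate 1 at 1485 (852 to 885) and in 9mTSCmKO+RM replicate 1 at 1652 (590 to 809). The latter library was also high for Cox7a2l, at 230.0 (120.1 to 151), and Sdhb, at 668.5 (395 to 441), and 9mTSCmKO+RM replicate 2 was high for Sdha, at 804.5 (642 to 682). The 4 libraries 9mCON replicate 2, 9mTSCmKO replicate 3, 9mCON+RM replicate 1 and 9mTSCmKO+RM replicate 1 had the highest short-transcript index, and its part in these values was not tested.

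The genotype difference of Cox4i2 differed between the ages by -1.31 on the log2 scale (edgeR adjusted p = 0.0379), from 0.29 at 3 months to -1.02 at 9 months. The call was lost with the replicate block, with insert size (which moved with age) as a term, with only the groups compared, and without any of 9 single libraries.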

How the results depend on the processing

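Of 200 log2 differences of named genes, 171 (index as a term) to 198 (DESeq2) stayed on their side of the threshold under each single alternative, as did 1892 of 2000 without 1 library. Values that did not pass are counted there even where their sign changed. The only called value that changed sign was Atp5k in 9mTSCmKO against 3mTSCmKO with insert size as a term (0.64 against -1.45). The causes of the changes below were not tested. Fewer libraries enter the fit where 1 or more are left out or groups are fitted alone. Groups fitted alone also take their spread from their own libraries and not from all 8 groups.

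Counts of members called that moved by over 1.5 times were as follows. With only the groups compared, 9mTSCmKO against 9mCON gave 0 (3 in the report), RM in 9mTSCmKO 2 (10), RM in 3mTSCmKO 7 (3), RM in 9mCON 0 (1), RM in 3mCON 1 (0), 9mCON against 3mCON 0 (1), 9mTSCmKO+RM against 9mCON 5 (11), 3mTSCmKO+RM against 3mCON 18 (4) and genotype by age 0 (1). With the short-transcript index as a term, and with the index made without ribosomal protein genes, the genotype gave 12 and 13 at 9 months and 5 and 8 at 3 months (2), RM gave 9 and 7 in 3mTSCmKO, 5 and 2 in 9mCON and 1 and 1 in 3mCON, age gave 4 and 4 in CON and 17 and 17 in TSCmKO (9), and 3mTSCmKO+RM against 3mCON gave 10 and 10. Without the 4 libraries of highest index the genotype gave 5 at 9 months, RM in 3mTSCmKO 6 and 3mTSCmKO+RM against 3mCON 9. Both limma fits (pseudocounts 1 and 0.1) gave 5 for the genotype at 9 months, 3 for RM in 9mCON and 0 for 9mCON against 3mCON, and DESeq2 gave 5 for the genotype at 9 months. With no filter on low counts the genotype at 3 months gave 0, RM in 9mTSCmKO 6 and RM in 3mTSCmKO 0. Upper-quartile scaling gave 0 for RM in 3mTSCmKO. Insert size as a term (without 9mTSCmKO+RM replicate 5, which has none) gave 0 for RM in 3mTSCmKO, 0 for 9mCON against 3mCON, 3 for 9mTSCmKO against 3mTSCmKO and 0 for genotype by age.

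Replicate numbers did not pair the libraries (140 pairs of the same number had a median correlation of -0.005, with 29 over 0.1, and 560 other pairs -0.003). The replicate block gave 0 for genotype by age, and paired exact tests, whose smallest p is 0.0625, could not pass for the ratios of Cox6a2 to Cox6a1 (-0.57) and Cox8b to Cox8a (-0.92) with RM in 3mTSCmKO. For Atp5g2 to Atp5g3, given with no test, paired and unpaired mean differences are equal by arithmetic, so their match is no check. They were -0.58 for the genotype at 9 months, and 1.26, 0.60, 0.70 and 0.45 with RM in 9mTSCmKO, 3mTSCmKO, 9mCON and 3mCON.

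Without 1 library each, counts ran from 1 to 6 (genotype, 9 months), 0 to 2 (genotype, 3 months), 4 to 20 (RM in 9mTSCmKO), 0 to 4 (RM in 3mTSCmKO), 0 to 1 (RM in 9mCON), 0 to 4 (9mCON against 3mCON), 7 to 14 (9mTSCmKO against 3mTSCmKO), 8 to 21 (9mTSCmKO+RM against 9mCON), 2 to 4 (3mTSCmKO+RM against 3mCON) and 0 to 1 (genotype by age), and the ratio of Atp5g2 to Atp5g3 with the genotype at 3 months from -0.35 to -0.15.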

Other observations

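Of 9 regulators of respiratory chain genes, all tested, 1 rose and 1 fell in 9mTSCmKO against 9mCON, where 19.1% of all genes rose and 18.9% fell. Esrrg, an estrogen-related receptor that drives oxidative genes in muscle, rose by 1.22 on the log2 scale (SE 0.28, edgeR adjusted p = 0.000775), and Nrip1, a corepressor of such genes, fell by 0.61 (SE 0.22, adjusted p = 0.0261). Ppargc1a, the coactivator of mitochondrial biogenesis, fell by 1.13 (SE 0.34, adjusted p = 0.0172) in 3mTSCmKO against 3mCON, the only regulator called there, and was at -0.84 (adjusted p = 0.0525) at 9 months. With RM, Yy1 rose by 0.40 (adjusted p = 0.000893) in 9mTSCmKO, Esrrg fell by 1.04 (adjusted p = 0.0053) and Esrra by 0.34 (adjusted p = 0.0433) in 3mTSCmKO, and Nrf1 rose by 0.34 (adjusted p = 0.0296) in 9mCON. Gabpa and Tfam passed in none of the 13 comparisons.

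Among the remaining cell type lists, in 9mTSCmKO against 9mCON 1 of 4 macrophage markers rose, 2 of 4 Schwann cell markers fell, and none of 4 erythroid or 3 satellite cell markers passed. With RM, satellite cell markers went from a median sum of 13.3 to 19.1 TPM in 3mCON, 10.1 to 21.1 in 3mTSCmKO, 11.1 to 21.6 in 9mCON and 11.7 to 21.9 in 9mTSCmKO, where 1, 1, 1 and 2 of the 3, respectively, rose.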
